A study of Mus musculus with 21 samples.

Results

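The genes described here encode proteins of homologous recombination, the Fanconi anaemia pathway and the DNA damage checkpoint. They were chosen by name, from a list of 45 names that uses no measured value. Of these names 44 have an entry in the deposited gene table, which holds 24454 genes, and all 44 were among the 13719 genes that passed the filter on low counts. The name without an entry is Claspn. The table lists claspin as Clspn, and its values are given separately because it was added after the table was seen.

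RNA sequencing was performed on mouse embryonic fibroblasts (MEFs) in 7 groups of 3 libraries, all collected 96 h after infection with an adenovirus that expresses GFP or Cre. Of these groups 5 came from MEFs with floxed Rtel1, together called the Rtel1 line below. They included Rtel1 F/F +GFP cells, Rtel1 F/F +Cre cells, and Rtel1 F/F +GFP cells that received the G4-DNA ligand TMPyP4 at 10 µM for the last 48 h. The others were +GFP and +Cre cells transduced with RTEL1 C1252A/C1255A, a mutant that is defective in unwinding t-loops. The paper lists the transduced cells as a separate cell line, so the mutant and the derivation of that line cannot be told apart. The remaining libraries were +GFP and +Cre cells of a Terf1 F/F line, labelled Trf1f/f, in which Cre removes the shelterin gene Terf1. The labels name 1 line per genotype, so line and genotype cannot be told apart, and Cre acts on a culture and not on a cloned population. The TMPyP4-treated cells carry the GFP adenovirus, like their controls, and Cre is absent from them. The 3 libraries of a group are called biological replicates in the labels, which do not say whether they are separate infections, and p-values measure the spread between these libraries. The depth was 32069888 to 51938593 counts per library.

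Homologous recombination repairs broken or stalled DNA by copying an intact sister sequence. The ends are first resected by MRE11, RAD50, NBN and CtIP, strand exchange then proceeds with the help of BRCA1 and BRCA2, and the joined molecules are finally cut by nucleases held on the scaffold SLX4 or by GEN1. The Fanconi core complex attaches ubiquitin to FANCD2 and FANCI at cross-linked or stalled forks, while the kinases ATM and ATR, activated at breaks and at exposed single-stranded DNA, slow the cell cycle through CHK2 and CHK1. RTEL1 is a helicase that dismantles recombination intermediates and G4-DNA, and in its absence t-loops at telomeres are cut by the SLX4 nuclease complex.

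Promoter sequence is shown for 4 genes, the pair of called members that fell most and the pair that rose most after Rtel1 loss, so that the letters searched can be seen. The sequences are from RefSeq on build GRCm38.p6 and run 5′ to 3′ on the strand of the gene. Capitals mark a match to an E2F site (TTTCCCGC, TTTCGCGC, TTTGCCGC or TTTGGCGC on either strand) or to a G4 motif, written as 4 runs of at least 3 G with gaps of 1 to 7 bases on either strand. Bases inside the annotated gene were left out, and distances are counted to the start in the promoter table, which for Mdc1, Fancg and Fancb lies inside the annotated gene. For Fancg, whose window lies within another transcript of the gene, only 30 bases around the match are shown. The Mdc1 stretch is chr17:35841248-35841494 on the plus strand and holds TTTCCCGC beginning 16 bases before that start. The Fancg stretch is chr4:43010335-43010364 on the minus strand, with the same letters 52 bases before the start. The Fancb stretch, chrX:164980342-164980479 on the plus strand, holds neither motif. The Atr stretch, chr9:95857347-95857596 on the plus strand, has a G4 motif on the strand of the gene that begins 84 bases before the start.
Mdc1: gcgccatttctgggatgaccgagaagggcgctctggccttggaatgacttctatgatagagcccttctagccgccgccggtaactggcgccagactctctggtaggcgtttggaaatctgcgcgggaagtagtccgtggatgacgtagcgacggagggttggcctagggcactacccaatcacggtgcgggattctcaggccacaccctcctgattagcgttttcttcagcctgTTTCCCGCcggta
Fancg: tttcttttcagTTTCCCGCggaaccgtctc
Fancb: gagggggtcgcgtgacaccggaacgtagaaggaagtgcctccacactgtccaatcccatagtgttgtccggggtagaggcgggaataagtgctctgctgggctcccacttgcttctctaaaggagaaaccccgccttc
Atr: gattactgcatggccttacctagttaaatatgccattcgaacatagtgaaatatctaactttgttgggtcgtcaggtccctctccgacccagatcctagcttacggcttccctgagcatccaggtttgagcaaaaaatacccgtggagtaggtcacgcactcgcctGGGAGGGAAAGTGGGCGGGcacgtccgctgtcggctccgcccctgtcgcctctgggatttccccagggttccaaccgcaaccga

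Among the 250 bases before the start, 35 of the 44 members were matched to a RefSeq promoter, of 27025 genes in all. Fancd2, Rad51d, Xrcc2, Rad50, Nbn, Rbbp8, Exo1, Rif1 and H2afx had none. E2F, the family of factors that drives genes of DNA synthesis, had a site in 6 of 35 member promoters (17.1%), against 2.2% of all promoters. The 6 were Fancg, Bard1, Brca2, Chek2, Topbp1 and Mdc1. The G4 motif was present in 1 of 35 (2.9%), Atr, against 18.5% of all promoters, and the cell cycle homology motif TTTGAA, searched on both strands and sharing no letters with an E2F match, was also present in 1 of 35 (2.9%), Bard1, against 18.3%. These counts describe letters in a window and are not evidence of binding or of a folded structure.

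The floxed genes were measured first, as a check of the labels. With GFP, Rtel1 F/F cells had 66.2, 59.1 and 60.2 CPM of Rtel1, where CPM is the count scaled to library size after TMM normalization, and with Cre they had 29.9, 31.9 and 26.8 CPM, so the groups did not overlap. Part of the count thus remained with Cre, and a count per gene does not show the floxed exons, which were not examined. TMPyP4-treated cells had 66.3, 79.0 and 71.0 CPM. In cells transduced with RTEL1 C1252A/C1255A the level was 328.5 to 337.7 CPM with GFP and 253.2 to 283.3 CPM with Cre, since a count per gene does not separate the transduced from the endogenous transcript. Terf1 had 27.9 to 30.3 CPM in Terf1 F/F +GFP cells and 0.0268 to 0.110 CPM in Terf1 F/F +Cre cells.

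The Rtel1 F/F +GFP libraries, the control for both Rtel1 loss and TMPyP4, stood apart from every other library of the Rtel1 line. The first principal component (79.0% of the variance) separated the Terf1 F/F line. On the second (11.2%) the Rtel1 F/F +GFP libraries lay at 40.3 to 52.3, and the other 12 Rtel1-line libraries at 22.4 or lower. Replicates also differed along it. In each other Rtel1-line group replicate 1 lay highest and replicate 2 lowest (-1.0 and -22.7 in +Cre cells). A list of 20 targets of p53, the transcription factor that arrests damaged cells, summed to 932 to 1113 CPM in the control libraries. In the other Rtel1-line libraries it summed to 1558 to 1984 CPM. The targets were not uniformly lower. Against Rtel1 F/F +Cre cells 14 were lower in the controls and 6 higher, such as Fas (mean 37.8 against 14.0 CPM). Plk2, the most abundant, had means of 347.6 against 685.8 CPM. The 12 fibroblast markers summed to 19620 to 21700 CPM in the controls and to 7221 to 14460 CPM in the other Rtel1-line libraries. Thy1 and Lum, a surface and a matrix marker of fibroblasts, were below 1 CPM in all 15 Rtel1-line libraries. Markers of other tissues were low in all 21 libraries (at most 3.47 CPM in sum for epithelium, 4.45 for endothelium, 6.69 for leukocytes and 0.761 for skeletal muscle, with Cd3e and Myod1 at 0), apart from the neural list at 31.0 to 124.9 CPM. The part these differences have in the results on repair genes was not tested, and in bulk RNA fewer cells of a type and less RNA per cell cannot be told apart.

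**Figure D1:**
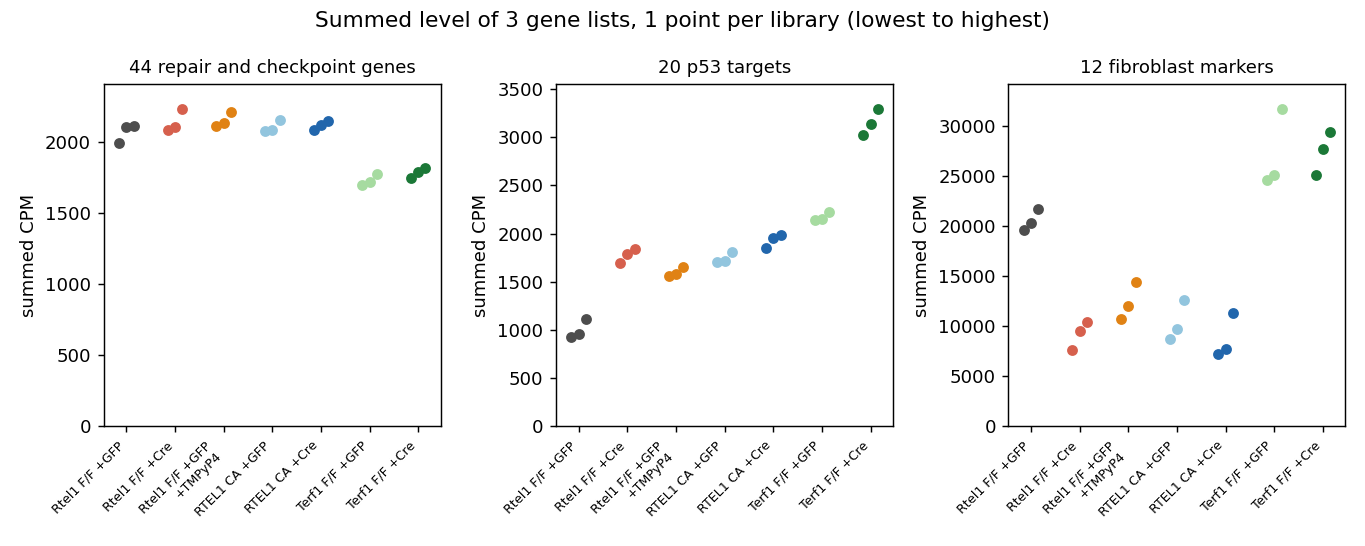
Summed CPM (y axis, linear from 0) of the 44 repair and checkpoint genes, 20 p53 targets and 12 fibroblast markers in each library (points, 3 per group, drawn from lowest to highest). The repair genes sum to 1990 to 2229 CPM in every Rtel1-line library, while the Rtel1 F/F +GFP libraries are lowest for p53 targets and highest for fibroblast markers within that line.

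All 44 genes were expressed in undeleted cells. On the scale of TPM, which divides by transcript length and so allows genes to be compared, the highest in Rtel1 F/F +GFP cells was H2afx, the histone variant phosphorylated at breaks, at 144.5 ± 8.58 TPM (SD, n = 3). It was followed by Topbp1, an activator of ATR, at 111.6 ± 6.28 TPM, and by the scaffold Mdc1 at 53.2 ± 3.86 TPM. The lowest was Ercc4, the XPF nuclease, at 2.51 ± 0.245 TPM, below Rad51b at 6.44 ± 0.938 TPM. Between these the order was mostly shallow, since of the 43 pairs of neighbours 33 overlapped in their libraries and 10 did not. The first 5, H2afx, Topbp1, Mdc1, Rbbp8 and Rad17, were each separated from the next, while Atr, at 8.58 ± 1.05 TPM, was among the lower members and overlapped with its neighbours.

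**Figure D2:**
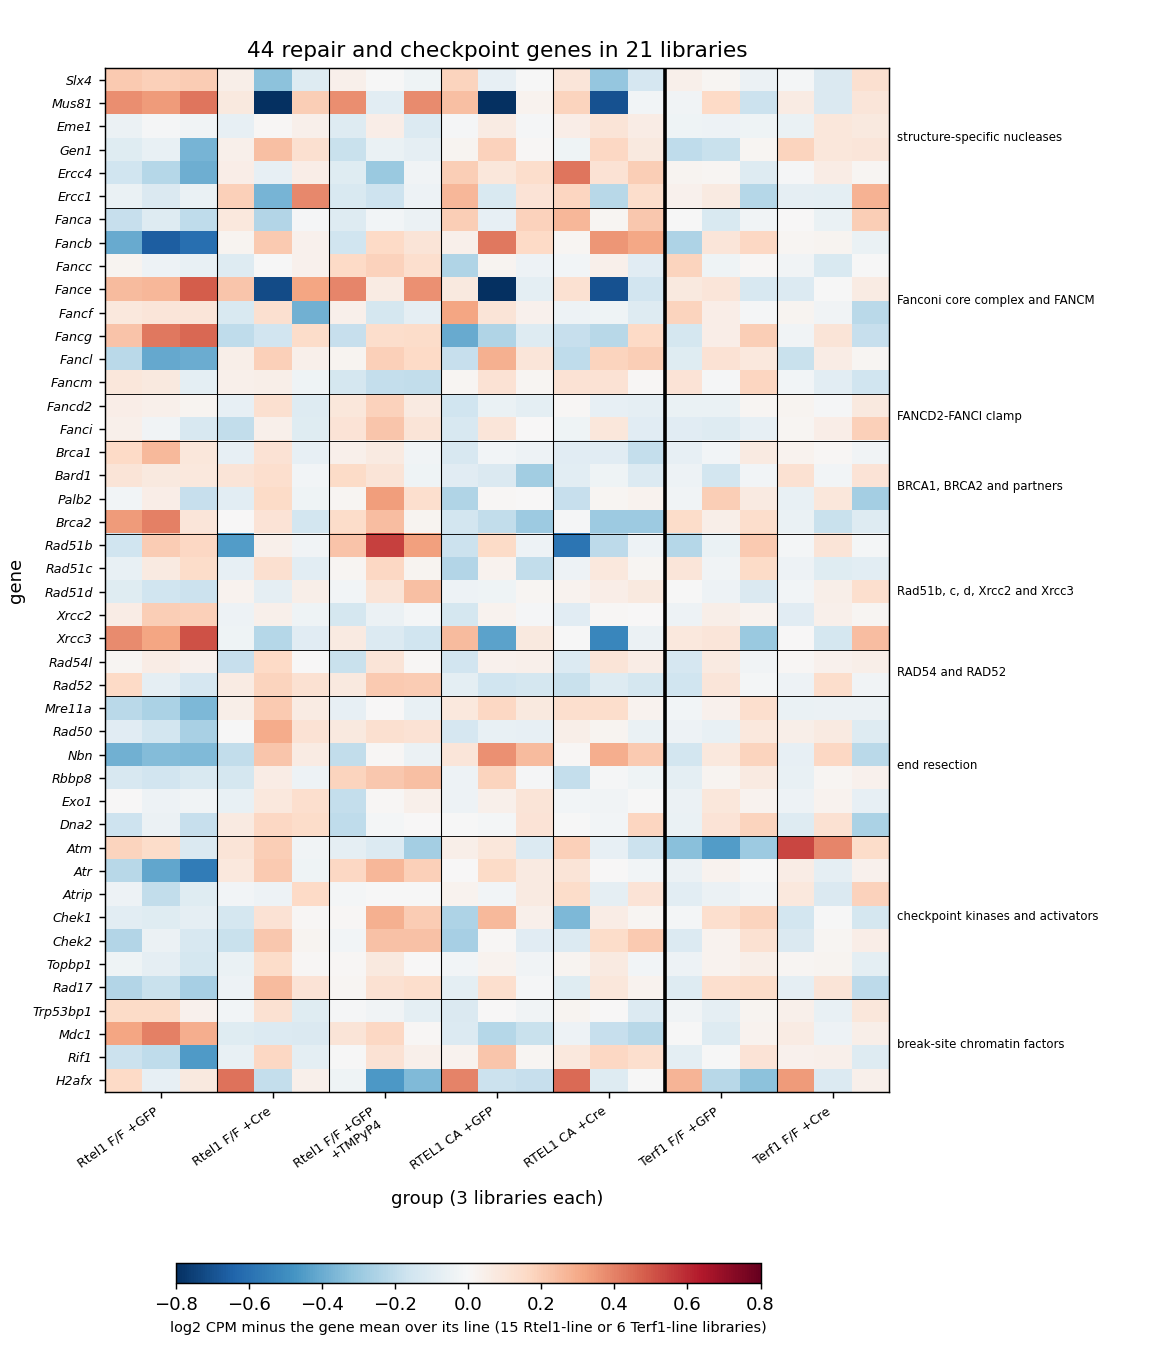
Log2 CPM of the 44 genes (y axis, grouped by role) in the 21 libraries (x axis), each minus the mean of that gene over its line. The left 3 columns, Rtel1 F/F +GFP, are low for Fancb, Mre11a, Nbn and Atr and high for Mdc1 and Fancg, and replicate 2 of 3 other Rtel1-line groups is low for Mus81 and Fance. Among the TMPyP4-treated libraries replicate 2 is likewise the lowest for Mus81.

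Across the list, deletion of Rtel1 (+Cre against +GFP) changed 11 of 44 genes, 9 upward and 2 downward. The threshold for a call was 0.01 on the adjusted p (quasi-likelihood test of edgeR, Benjamini-Hochberg over all 13719 genes). Of all genes 43.0% were called, 22.0% higher and 21% lower, so the share of members called (25%) was below the share of all genes. The genes that rose were Fancb and Fancl of the core complex, the 3 subunits of the MRN complex, the checkpoint genes Atr and Rad17, Gen1 and Rif1. Mdc1 and Fancg fell. The median member had a log2 fold change of 0.06, against -0.03 for all genes, and the range was -0.53 to 0.64. Treatment with TMPyP4 changed 10 of 44, 9 upward and 1 downward, against 30.0% of all genes (16.6% higher, 13.4% lower), with a median of 0.07 against -0.01. Those higher were Fancb, Fancl, Rad51d, Mre11a, Rad50, Rbbp8, Atr, Rad17 and Rif1, and Mdc1 was lower. Both comparisons use the same Rtel1 F/F +GFP libraries. Libraries of the groups did not overlap for 19 of 44 members after Rtel1 loss and for 28 with TMPyP4. The shares of all genes without overlap were 61.4% and 57.8%, so a lack of overlap was common and does not set a member apart.

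The split between higher and lower members depended on the scaling. With library totals in place of TMM the median of all genes moved from -0.03 to -0.14 for Rtel1 loss and from -0.01 to -0.11 for TMPyP4, and the called members became 3 higher and 8 lower, and 3 higher and 5 lower. No member called under TMM changed direction in the 7 alternative fits or after omission of a library, but some did against other control libraries. The counts also fell after omission of some single libraries, in the control group or in the other group. The share of all genes called in each setting is not given beside them. Such falls can thus not be read as particular to the members or to the controls. For Rtel1 loss 5 members were called without Rtel1 F/F +GFP replicate 2 or without replicate 3, and 6 without +Cre replicate 2 or 3. For TMPyP4 the count was 1 without +GFP replicate 2, 2 without +GFP replicate 3, and 4 and 3 without TMPyP4 replicate 2 and 3. Fancb, Mre11a, Atr and Mdc1 after Rtel1 loss, and Atr after TMPyP4, were called in all 7 alternative fits and after each of 6 omissions of a library. With RTEL1 C1252A/C1255A +GFP libraries as the control, the counts were 0 for Rtel1 loss and 2 for TMPyP4 (1 and 4 with a replicate block). The other 7 genes called after Rtel1 loss were called after 1 to 4 of the 6 omissions. All 7 lost the call without +GFP replicate 3 or without +Cre replicate 2, and adjusted p reached 0.111 at most over these fits and omissions. The other 9 genes called with TMPyP4 lost it without +GFP replicate 2, and their adjusted p likewise reached 0.105 at most.

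**Figure D3:**
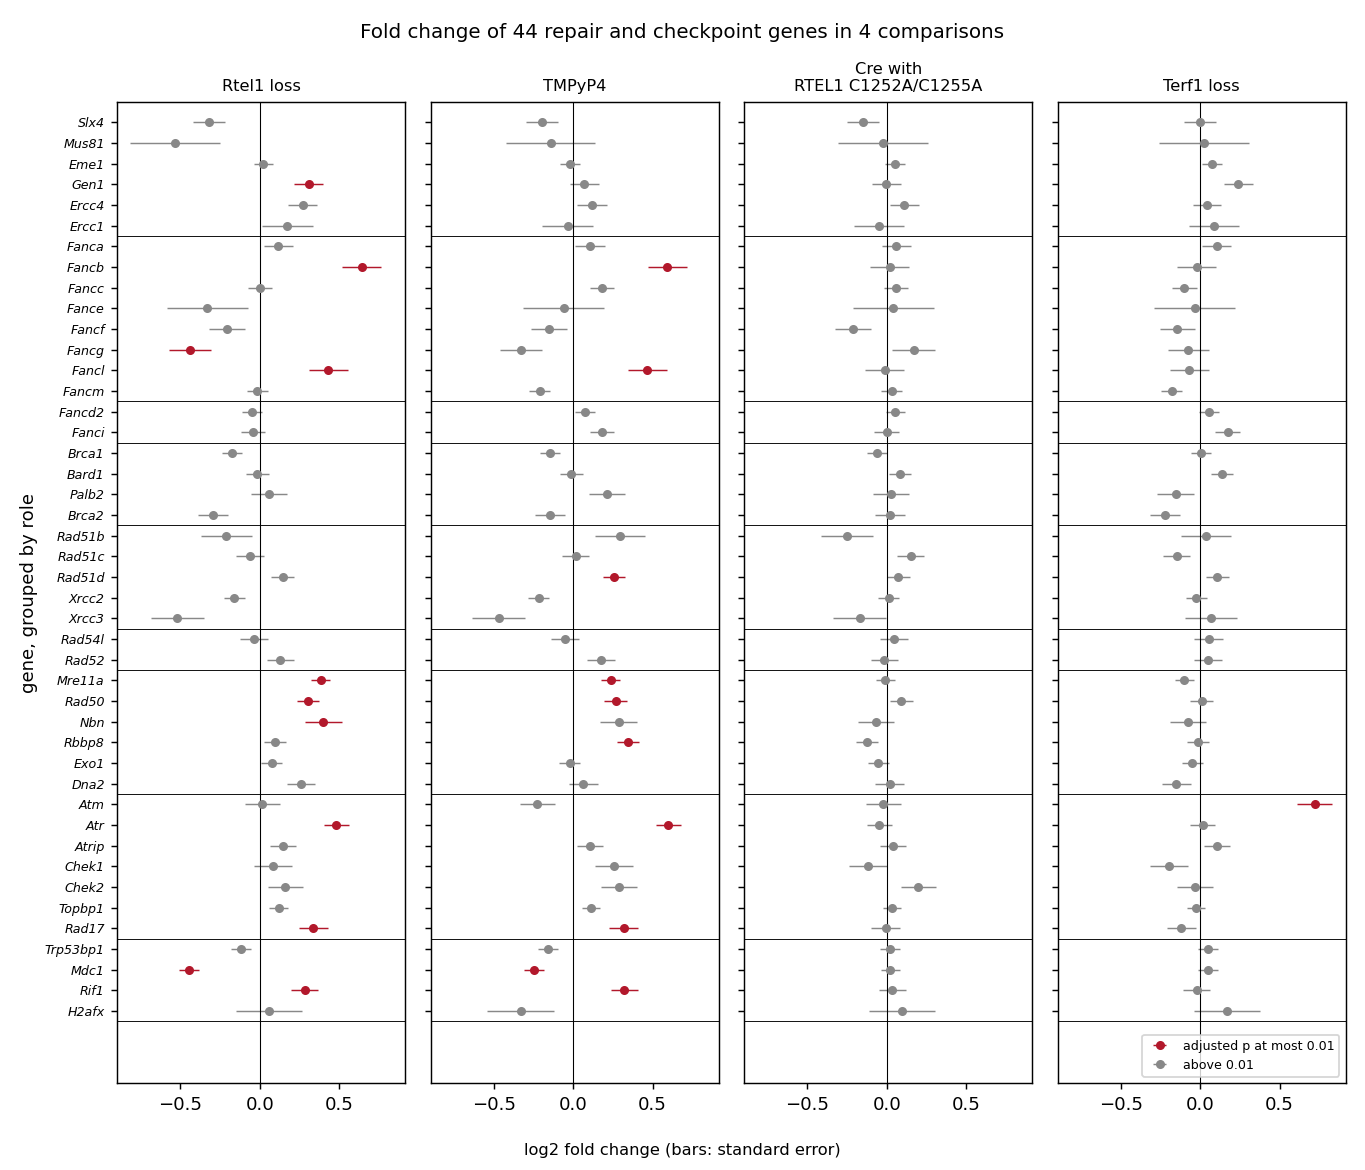
Log2 fold change (x axis, bars are standard errors from edgeR) of the 44 genes (y axis, grouped by role) in the 4 comparisons with a +GFP control of the same line. Red points have an adjusted p of at most 0.01, 11 for Rtel1 loss, 10 for TMPyP4, 0 for Cre with RTEL1 C1252A/C1255A and 1 for Terf1 loss.

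Of 6 structure-specific nuclease genes, 1 was called after Rtel1 loss and 0 after TMPyP4, against 43.0% and 30.0% of all genes. The called gene was Gen1, which cuts Holliday junctions, with 18.8, 19.3 and 15.6 CPM in +GFP and 20.7, 23.8 and 22.0 CPM in +Cre cells. All +Cre libraries were above all +GFP libraries, and the gene rose by a log2 fold change of 0.31 ± 0.09 (SE; adjusted p = 0.0076, edgeR). With TMPyP4 it had 17.8 to 19.4 CPM, overlapping with the controls. Slx4, the scaffold of the nuclease complex that cuts persistent t-loops, had 39.8, 39.4 and 39.8 CPM in +GFP, 35.7, 27.5 and 32.1 CPM in +Cre and 35.5, 34.5 and 33.7 CPM in TMPyP4-treated cells. Every library of both groups was below every control, by a log2 fold change of -0.32 ± 0.10 (adjusted p = 0.012) and -0.20 ± 0.10 (adjusted p = 0.12), neither of which passed the threshold. Separation from the controls in either direction was found for 61.4% and 57.8% of all genes. The former passed it in 5 of 7 alternatives and 1 of 6 omissions. In the other groups Slx4 lay at 27.8 to 39.1 CPM.

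Mus81, the catalytic subunit of a nuclease that works on SLX4, had the most negative value of any member after Rtel1 loss, -0.53 ± 0.28, without a call (adjusted p = 0.12). Its +Cre libraries had 14.6, 6.92 and 15.9 CPM against 17.6 to 18.7 CPM in the controls, and replicate 2 was also the lowest of RTEL1 C1252A/C1255A +GFP (16.4, 7.92 and 14.2 CPM) and +Cre cells (15.7, 8.57 and 13.7 CPM). In TMPyP4-treated cells replicate 2 was the lowest too, by less (17.97, 13.1 and 18.05 CPM). Fance, a core complex subunit, had the same low libraries, with 18.5, 9.65 and 19.7 CPM in +Cre cells against 18.9 to 22.2 CPM in controls. Its difference was -0.33 ± 0.25 (adjusted p = 0.28). Both genes thus had their widest spread where replicate 2 was low. Slx4 too was lowest in replicate 2 of Rtel1 F/F +Cre cells (27.5 CPM). The same held in +GFP and +Cre cells with the mutant (33.0 and 27.8 CPM). Ercc4 reached 0.27 ± 0.09 (adjusted p = 0.019), and Eme1, the partner of MUS81, and Ercc1, the partner of XPF, had 0.02 ± 0.06 and 0.18 ± 0.16.

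The Fanconi core complex and FANCM held 3 called genes of 8 after Rtel1 loss, 2 up and 1 down. After TMPyP4 it was 2 of 8, both up. Of all genes 43.0% and 30.0% were called. Fancb (chrX:164980480-164997272), a subunit of the catalytic module of the complex, had 34.7, 29.1 and 30.3 CPM in +GFP cells. It had 46.7, 53 and 47.1 CPM in +Cre and 41.1, 51.3 and 49.3 CPM in TMPyP4-treated cells. All 6 libraries were above the controls, and the gene rose by 0.64 ± 0.12 on the log2 scale after Rtel1 loss (adjusted p = 0.000232) and by 0.59 ± 0.12 with TMPyP4 (adjusted p = 0.000839). The TMPyP4 call was lost without Rtel1 F/F +GFP replicate 2 or 3. Fancl, the ubiquitin ligase of the same module, had 8.26, 7.24 and 7.29 CPM in controls, 9.93, 10.9 and 9.88 CPM after Rtel1 loss and 9.76, 10.98 and 10.7 CPM with TMPyP4. It was likewise higher in all 6 libraries, by 0.43 ± 0.12 (adjusted p = 0.00633) and 0.47 ± 0.12 (adjusted p = 0.00545).

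Fancg, an adaptor subunit, went the other way, with 13.8, 15.8 and 16.2 CPM in controls and 10.2, 10.6 and 13.0 CPM in +Cre cells. The groups did not overlap, and it fell by 0.44 on the log2 scale (SE 0.13, adjusted p = 0.00979). With TMPyP4 it had 10.4, 13.0 and 13.0 CPM, a difference of -0.33 ± 0.13 that was not called (adjusted p = 0.054). The other 5 genes of the role, Fanca, Fancc, Fance, Fancf and the translocase Fancm, lay between -0.33 and 0.12 after Rtel1 loss. Genes for the clamp on which the core complex acts were not called in either comparison. Fancd2 had 44.1 ± 0.570 CPM in +GFP, 42.7 ± 3.71 CPM in +Cre and 46.5 ± 1.99 CPM in TMPyP4-treated cells (SD, n = 3), and Fanci 46.5 ± 2.72, 45.1 ± 3.67 and 52.8 ± 2.56 CPM.

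Genes that act between resection and cutting are set beside the 43.0% and 30.0% of all genes called after Rtel1 loss and TMPyP4. None of the 4 genes of the BRCA1, BRCA2, BARD1 and PALB2 group was called after Rtel1 loss or TMPyP4. Brca2, a mediator of strand exchange, had 59.0, 61.7 and 49.9 CPM in controls and 46.7, 50.3 and 42.1 CPM in +Cre cells, so the groups overlapped, with a difference of -0.30 ± 0.09 (adjusted p = 0.012). Brca1, the ligase that promotes resection, had 101.3 to 113.7 CPM in controls and 90.8 to 103.1 CPM in +Cre cells (-0.17 ± 0.06, adjusted p = 0.025). Of the 5 genes Rad51b, Rad51c, Rad51d, Xrcc2 and Xrcc3, 0 were called after Rtel1 loss and 1 after TMPyP4. This was Rad51d, with 13.2, 12.6 and 12.5 CPM in controls and 13.9, 15.2 and 16.6 CPM with the ligand, higher by 0.26 ± 0.07 (adjusted p = 0.00709). Its 3 treated libraries were above the controls, but the call was kept in only 3 of 7 alternatives and 2 of 6 omissions. Xrcc3 had 7.50 to 8.59 CPM in controls, 5.14 to 5.90 CPM after Rtel1 loss and 5.40 to 6.34 CPM with TMPyP4. Both sets were below the controls, at -0.52 ± 0.17 (adjusted p = 0.013) and -0.47 ± 0.17 (adjusted p = 0.031), short of the threshold. Neither the motor protein gene Rad54l nor Rad52, which anneals single strands, was called (-0.04 ± 0.09 and 0.13 ± 0.09 after Rtel1 loss).

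Of the 6 end resection genes 3 rose after Rtel1 loss and 3 after TMPyP4, with medians of 0.28 and 0.25 on the log2 scale, where 43.0% and 30.0% of all genes were called. The 3 that rose after Rtel1 loss encode the MRN complex, which senses broken ends and activates ATM. Mre11a (chr9:14784654-14837125), its nuclease, had 68.0, 66.3 and 61.5 CPM in controls, 81.6, 91.4 and 82.6 CPM in +Cre and 75.5, 79.1 and 75.96 CPM in TMPyP4-treated cells. No library overlapped with the controls, and the rise was 0.38 ± 0.06 (adjusted p = 2.73e-05) and 0.24 ± 0.06 (adjusted p = 0.00372). Rad50, the tether of the complex, had 59.9, 57.6 and 53.4 CPM in controls and rose to 63.7, 78.4 and 69.0 CPM with Cre (0.30 ± 0.07, adjusted p = 0.00159) and to 67.3, 69.6 and 69.1 CPM with TMPyP4 (0.27 ± 0.07, adjusted p = 0.00581). Nbn, which recruits the complex, had 40.6, 41.5 and 41.5 CPM in controls and 46.2, 61.6 and 55.3 CPM with Cre, and rose by 0.40 ± 0.12 (adjusted p = 0.00721). With TMPyP4 it had 46.3, 53.3 and 51.3 CPM, also above all controls but not called (0.29 ± 0.12, adjusted p = 0.054).

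Rbbp8, which encodes CtIP, the cofactor of MRE11, was called with TMPyP4 and not after Rtel1 loss. Controls had 80.9, 79.3 and 81.1 CPM, treated cells 99.7, 102.5 and 104.2 CPM and +Cre cells 79.9, 92.1 and 85.8 CPM. The treated libraries were above all others of the comparison, by 0.35 ± 0.07 over controls (adjusted p = 0.000576), while +Cre cells overlapped with controls (0.10 ± 0.07, adjusted p = 0.24). The direct difference between +Cre and treated cells was -0.25 ± 0.07 and missed the threshold (adjusted p = 0.0115). Exo1 and Dna2, the nucleases of long-range resection, were not called in either comparison (0.08 ± 0.07 and 0.26 ± 0.09 after Rtel1 loss).

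**Figure D4:**
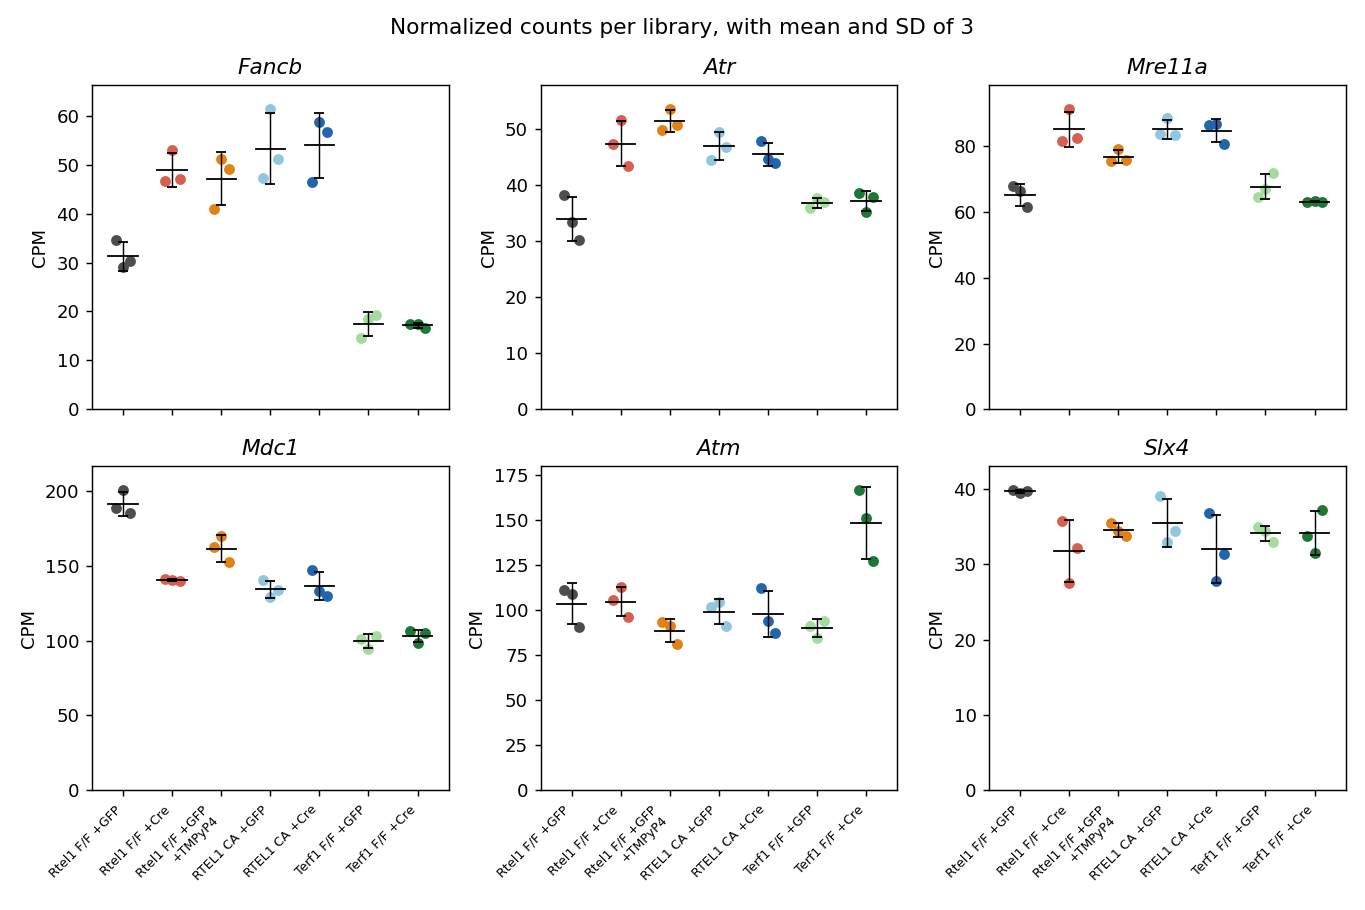
CPM (y axis, linear from 0) of 6 genes in each library of the 7 groups (x axis), with bars for the mean and SD of 3. Fancb, Atr and Mre11a are lowest and Mdc1 highest in Rtel1 F/F +GFP among the Rtel1-line groups, Atm stands out in Terf1 F/F +Cre at 127.6 to 166.7 CPM, and Slx4 lies between 27.5 and 39.8 CPM in the Rtel1 line.

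Of 7 genes for checkpoint kinases and their activators 2 were called after Rtel1 loss, where 43.0% of all genes were called. All 7 differences were positive, from 0.02 to 0.48 with a median of 0.15, but the smaller ones were near 0. With library totals in place of TMM the median of all 44 members moved from 0.06 to -0.04. Against RTEL1 C1252A/C1255A +GFP cells Chek1 had -0.035. Atr (chr9:95857597-95953217), the kinase of stalled forks, had 38.2, 33.5 and 30.2 CPM in controls, 47.3, 51.6 and 43.5 CPM in +Cre and 49.9, 53.6 and 50.8 CPM in TMPyP4-treated cells. All 6 libraries exceeded the controls, by 0.48 ± 0.08 (adjusted p = 5.9e-05) and 0.60 ± 0.08 (adjusted p = 1.38e-05). Rad17, the clamp loader that places the 9-1-1 clamp at such sites, had 53.02, 55.2 and 51.7 CPM in controls and rose to 60.6, 74.1 and 67.2 CPM after Rtel1 loss (0.34 ± 0.09, adjusted p = 0.00435) and to 63.1, 67.6 and 68.8 CPM with TMPyP4 (0.32 ± 0.09, adjusted p = 0.00884). The partner of ATR, Atrip, had 0.15 ± 0.08, and Topbp1 0.12 ± 0.06. The effector kinases Chek1 and Chek2 had 0.08 ± 0.12 and 0.16 ± 0.11 after Rtel1 loss and 0.26 ± 0.12 and 0.29 ± 0.11 with TMPyP4, none called. Atm, the kinase of double-strand breaks, differed by 0.02 ± 0.11 after Rtel1 loss and -0.23 ± 0.11 with TMPyP4. Clspn, the adaptor between ATR and CHK1 that is not among the 44, had 77.9, 73.9 and 68.7 CPM in controls and 79.7, 88.3 and 82.7 CPM in +Cre cells, and rose by 0.19 (adjusted p = 0.00949). With TMPyP4 it differed by 0.01. In undeleted RTEL1 C1252A/C1255A +GFP cells Clspn was also called higher than in these controls, by 0.20.

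Of the 4 break-site chromatin factors, 1 rose and 1 fell in both comparisons, in which 43.0% and 30.0% of all genes were called. Mdc1 (chr17:35841495-35859670), the scaffold that binds phosphorylated H2AX, had 188.4, 200.3 and 184.9 CPM in controls, 141.1, 140.2 and 139.7 CPM after Rtel1 loss and 162.4, 169.6 and 152.1 CPM with TMPyP4. Both groups lay below every control, with the +Cre libraries lowest and close together. It fell by 0.45 on the log2 scale after Rtel1 loss (SE 0.06, adjusted p = 8.97e-06) and by 0.25 with TMPyP4 (SE 0.06, adjusted p = 0.00392). Rif1, which limits resection downstream of 53BP1, had 106.7, 104.1 and 87.8 CPM in controls and rose to 115.2, 134.3 and 113.8 CPM after Rtel1 loss (0.28 ± 0.08, adjusted p = 0.00878) and to 119.9, 130.2 and 123.2 CPM with TMPyP4 (0.32 ± 0.08, adjusted p = 0.0052). Trp53bp1, the gene of 53BP1, and H2afx were not called, and H2afx had a wide spread, with 72.8 to 111.9 CPM in +Cre cells.

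With RTEL1 C1252A/C1255A present, Cre changed 0 of the 44 genes by edgeR, and 0 had an unadjusted p under 0.05 by edgeR or DESeq2. Of all genes 1.09% were called, and 14.2% had an unadjusted p under 0.05 by edgeR. The members lay between -0.25 and 0.20 on the log2 scale, with a median of 0.02. With GFP, Fancb had 47.3, 61.5 and 51.3 CPM in these cells, and 46.5, 58.8 and 56.8 CPM once Cre was added. Mdc1 had 140.3, 129.2 and 133.4 CPM and 147.0, 132.9 and 129.5 CPM in the same order. With GFP alone, Fancb was already above and Mdc1 below every library of Rtel1 F/F +GFP cells. Between cells without and with the mutant, the change on Cre infection differed for 4 members, against 25.1% of all genes. The difference in log2 fold change was 0.63 ± 0.17 for Fancb (adjusted p = 0.00829), 0.39 ± 0.08 for Mre11a (adjusted p = 0.0013), 0.53 ± 0.11 for Atr (adjusted p = 0.00131) and -0.47 ± 0.09 for Mdc1 (adjusted p = 0.00042). When replicate numbers entered as a block 8 members were called, the added ones being Fancg, Fancl, Brca2 and Nbn, but the numbers pair only some of the 4 groups. Omission of a single library gave 2 to 4 calls. Atr and Mdc1 were called after all 12 omissions, Mre11a after 9 and Fancb after 3.

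A comparison of both undeleted +GFP groups shows where these differences lay. In RTEL1 C1252A/C1255A +GFP cells 12 of 44 genes differed from Rtel1 F/F +GFP cells without any deletion, 7 higher and 5 lower, against 44.7% of all genes (22.6% higher, 22.1% lower). The higher genes were Ercc4, Fancb, Fancl, Mre11a, Nbn, Atr and Rif1 and the lower genes Fancg, Brca1, Bard1, Brca2 and Mdc1. Fancb differed by 0.77 ± 0.12 (adjusted p = 3.9e-05), Nbn by 0.60 ± 0.12 (adjusted p = 0.000255), Atr by 0.47 ± 0.08 (adjusted p = 7.73e-05) and Mre11a by 0.39 ± 0.06 (adjusted p = 2.55e-05). Mdc1 differed by -0.51 ± 0.06 (adjusted p = 1.88e-06), Fancg by -0.62 ± 0.13 (adjusted p = 0.000733) and Brca2 by -0.50 ± 0.09 (adjusted p = 0.000186). Rad50 and Rad17, called after Rtel1 loss, had 0.08 ± 0.07 and 0.24 ± 0.09 here and were not called. This comparison shares its control libraries with Rtel1 loss and TMPyP4. With library totals alone it gave 4 members higher and 9 lower, with the median of all genes at -0.15.

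Rtel1 F/F cells with Cre and those given TMPyP4 were also set against the RTEL1 C1252A/C1255A +GFP libraries, an alternative added after the data were seen. These libraries differ from the former cells in the transduced mutant as well, and come from a cell line that the paper lists separately. For Rtel1 F/F +Cre cells 0 of 44 genes were then called by edgeR, against 7.76% of all genes, with 5 at an unadjusted p of at most 0.05 and the smallest adjusted p at 0.0369. Fancb had -0.12 ± 0.12, Mre11a -0.001 ± 0.06 and Atr 0.01 ± 0.08 on this scale. For TMPyP4 2 of 44 were called, against 17.0% of all genes, namely Brca2 (0.35, adjusted p = 0.00863) and Mdc1 (0.27, adjusted p = 0.00369), both higher than in these controls. Same-numbered libraries of these 3 groups deviated together. With a block on the number over them 1 member was called for Rtel1 F/F +Cre cells, Bard1 (0.23, adjusted p = 0.00906), and 4 for TMPyP4, namely Fancd2, Bard1, Brca2 and Mdc1, all higher, against 9.20% and 21.6% of all genes. Of the 21 calls made against Rtel1 F/F +GFP cells (11 and 10), 10 had the opposite sign here without the block. Mdc1 with TMPyP4 was thus lower than in one +GFP group and higher than in the other. 

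**Figure D5:**
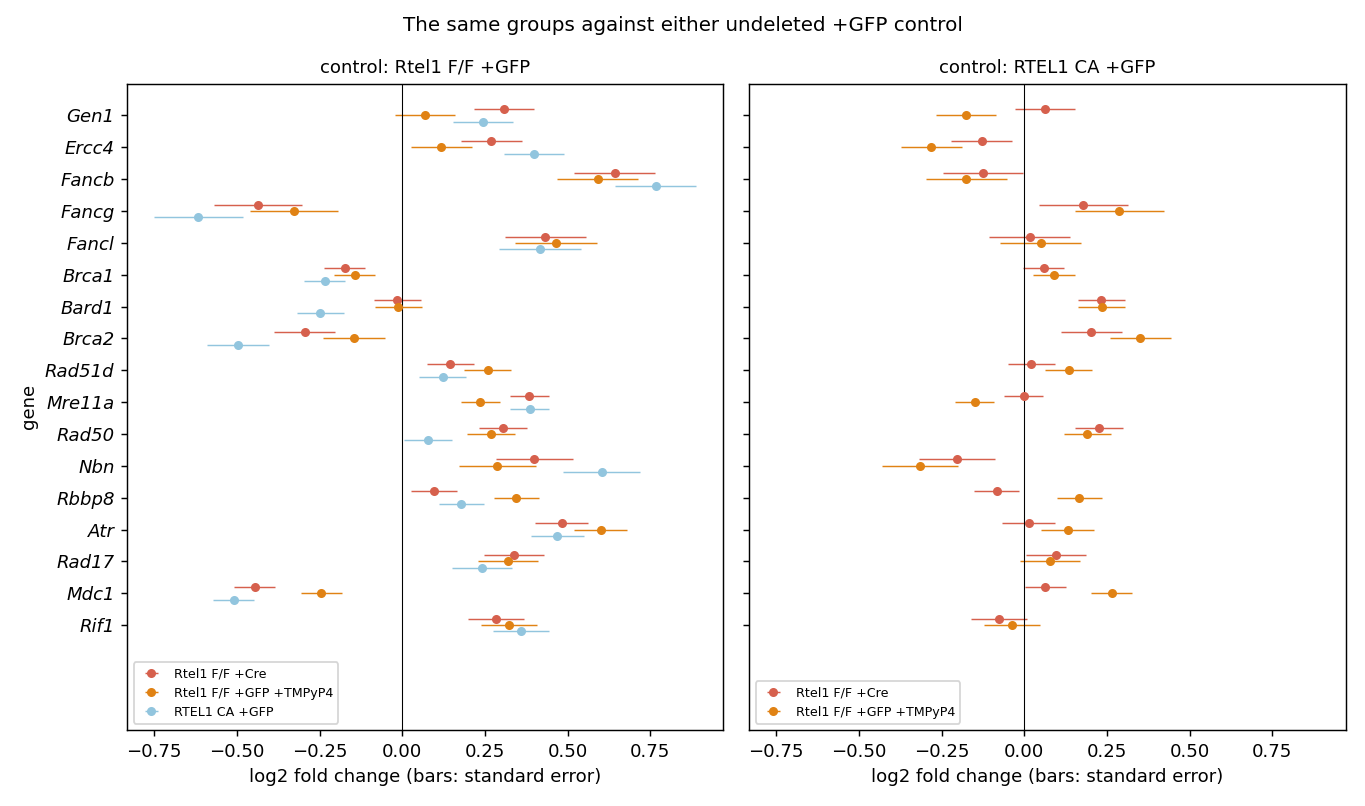
Log2 fold change (x axis, bars are standard errors) of the 17 genes (y axis) called for Rtel1 loss, for TMPyP4 or between both +GFP groups, against Rtel1 F/F +GFP on the left and against RTEL1 C1252A/C1255A (RTEL1 CA) +GFP on the right. On the left Fancb is at 0.59 to 0.77 in all 3 groups, and on the right it is below 0 in both.

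Rtel1 F/F cells with Cre and those with TMPyP4 were compared directly. By edgeR 0 of 44 genes were called, against 15.2% of all genes. An unadjusted p under 0.05 was found for 10 members by edgeR as by DESeq2, against 35.7% of all genes by edgeR. Same-numbered libraries of these groups deviated together, and a block on replicate number gave 4 calls. In that fit +Cre cells had less Rad51b (-0.51, adjusted p = 0.00408), Rbbp8 (-0.25, adjusted p = 0.00272) and Mdc1 (-0.20, adjusted p = 0.00586) and more H2afx (0.38, adjusted p = 0.00164). Rad51b had 3.78, 5.29 and 5.05 CPM in +Cre and 6.02, 7.52 and 6.45 CPM in treated cells. H2afx had 111.9, 72.8 and 85.3 CPM against 81.0, 60.4 and 64.8 CPM, so that its groups overlapped although each +Cre library was above the treated library of the same number.

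After Terf1 loss 5 members had an unadjusted p under 0.05 by edgeR, against 17.3% of all genes. At the adjusted threshold 1 of 44 genes was called by edgeR and by DESeq2, against 3.42% of all genes by edgeR. The gene was Atm (chr9:53437122-53536828), with 91.4, 84.4 and 94.1 CPM in Terf1 F/F +GFP and 166.7, 151.3 and 127.6 CPM in Terf1 F/F +Cre cells. It rose by 0.72 ± 0.11 (adjusted p = 0.000296), a call kept in 7 of 7 alternatives and after all 6 omissions. The Rtel1-line groups ranged from 81.5 to 112.9 CPM, below every Terf1 F/F +Cre library. Between the Rtel1 F/F and Terf1 F/F lines the change on Cre infection differed for 6 members, against 30.2% of all genes. The difference was -0.71 ± 0.16 for Atm (adjusted p = 0.00137), 0.67 ± 0.17 for Fancb (adjusted p = 0.00505), 0.49 ± 0.08 for Mre11a (adjusted p = 0.000171), 0.47 for Atr (adjusted p = 0.00284), 0.46 ± 0.13 for Rad17 (adjusted p = 0.00861) and -0.50 for Mdc1 (adjusted p = 0.000212). Without 1 library the count was 3 to 8. Mre11a, Atm and Mdc1 were called after all 12 omissions, Atr after 7, Fancb after 4 and Rad17 after 3.

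Several members stood at other levels in the Terf1 F/F line irrespective of Cre. Fancb had 14.5 to 19.3 CPM in its 6 libraries and 29.1 to 61.5 CPM in the Rtel1 line, Mdc1 94.4 to 106.1 CPM and 129.2 to 200.3 CPM, and Rad17 29.1 to 37.1 CPM and 51.7 to 74.1 CPM. Ercc4 was higher, at 15.2 to 17.0 CPM against 7.47 to 13.2 CPM. These are differences between 2 lines and cannot be told apart from their genotypes.

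Genes around the 44 were counted on a list of 42 further pathway genes. After Rtel1 loss 14 of 42 (33.3%) were called, 9 higher and 5 lower, and with TMPyP4 8 of 42 (19%), 6 higher and 2 lower, both below the 43.0% and 30.0% of all genes. Cre with RTEL1 C1252A/C1255A and Terf1 loss gave 0 of 42 each. Among called genes the largest rises were Bre with TMPyP4 (0.61 ± 0.09), and Swi5 (0.53 ± 0.11) and Brcc3 (0.50 ± 0.12) after Rtel1 loss. Bre and Brcc3 encode subunits of BRCA1-A, a deubiquitinating complex, and Swi5 a factor of strand exchange. The largest falls among called genes, all after Rtel1 loss, were Slx1b (-0.55 ± 0.09), the nuclease partner of SLX4, Timeless (-0.54 ± 0.12), of the fork protection complex, and Rnf168 (-0.40 ± 0.06), the ligase that marks chromatin for 53BP1.

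Genes of proliferation and arrest were counted in the same comparisons, in which 43.0% and 30.0% of all genes were called. Of 20 S-phase genes 9 were called after Rtel1 loss (5 higher, 4 lower) and 3 with TMPyP4 (1 higher, 2 lower), shares of 45% and 15% that are near and below those of all genes. Of 20 genes of G2 and mitosis 10 were called (9 higher, 1 lower) and 7 (6 higher, 1 lower), which is 50% and 35%, and of 20 p53 targets 13 (10 higher, 3 lower) and 10 (9 higher, 1 lower), which is 65% and 50%. In Terf1 loss 9 p53 targets rose and 1 S-phase gene, and in Cre with RTEL1 C1252A/C1255A 5 p53 targets, 1 S-phase gene and 1 gene of G2 and mitosis. Cdkn1a, the p53 target that inhibits cyclin-dependent kinases, rose by 1.22 ± 0.06 after Rtel1 loss, 0.84 ± 0.06 with TMPyP4, 0.62 ± 0.06 for Cre with the mutant and 0.77 ± 0.05 after Terf1 loss. Of 12 fibroblast markers 10 were called after Rtel1 loss, 8 of them lower, and 7 with TMPyP4, all lower. The part of these changes in the levels of the repair genes was not tested.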

How the data were processed

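RNA-seq had been done on MEFs in 7 groups of 3 libraries. The authors trimmed reads with cutadapt 1.9.1, mapped them with STAR 2.5.2a and estimated counts with RSEM 1.3.0 for RefSeq genes of mm10, using the strand of the reads. They deposited the expected count of each gene, without normalization, and its TPM, which RSEM scales for transcript length and to a fixed total. The deposited expected counts were all whole numbers. DESeq2 1.28.0 is also named in the submitters' processing notes. Read length and serum differ between labels and methods and do not enter here. TPM was used only to order genes within 1 group.

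Counts were fitted in R 4.3.3 with edgeR 4.0.16. Genes were filtered with filterByExpr, libraries were scaled with TMM, and a robust quasi-likelihood model took all 21 libraries with a coefficient for each group (14 residual degrees of freedom). Tests were two-sided, with Benjamini-Hochberg adjustment over 13719 genes and calls at 0.01. The standard error is the log2 fold change divided by the root of the F statistic. The script was tested on simulated counts. Alternative settings used DESeq2 1.42.0, size factors from DESeq2, unscaled library totals, no filter or 10 counts in every library, separate fits of those groups under comparison, a block on replicate number, a threshold of 0.05, a floor of 0.5 on the absolute log2 change, omission of each library, and RTEL1 C1252A/C1255A +GFP as the control, without and with a block over the 3 groups involved, the last 2 added after seeing the data. At most 3.67% of counts were identical between any 2 libraries. Depth was 32069888 to 51938593 counts per library, with a median of 43013208.

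Pairing was checked by correlating deviations from group means over 11840 genes and was taken to hold where r exceeded 0.1 for all 3 numbers. It held for +Cre and +GFP cells with RTEL1 C1252A/C1255A (0.86, 0.84 and 0.42) for Rtel1 F/F cells with Cre and those with TMPyP4 (0.72, 0.76 and 0.41), and for RTEL1 C1252A/C1255A +GFP cells with each of the latter (0.78, 0.81 and 0.20, and 0.78, 0.69 and 0.30). In all it held for 9 of 21 pairs of groups, and for no pair that included Rtel1 F/F +GFP cells. The rule is coarse. Rtel1 F/F +GFP and TMPyP4-treated cells did not meet it (0.02, 0.05 and 0.13), yet each library best matched its own number (6 of 6 cases). Rtel1-line pairs with Terf1 F/F +GFP cells that met it did so in only 2 or 3 of 6 cases.

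The members and lists were chosen with earlier results of these data known. Library values were given for called members with the largest changes, those that differed between lines, and Slx4, and for members singled out for a spread or a near miss. Of other pathway genes the 3 largest called rises and falls were named, and promoters are those of the 2 largest called falls and rises after Rtel1 loss. Promoters and coordinates came from RefSeq tables on GRCm38. Figures were drawn with Python 3.11.15, pandas 2.3.3, numpy 2.4.6 and matplotlib 3.10.9.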

Additional observations from a re-analysis of the deposited data

Results flagged for a closer look

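The effect of Cre on 4 genes differed, by an interaction test in edgeR, between Rtel1 F/F cells and the floxed cells with RTEL1 C1252A/C1255A. The difference in log2 fold change was 0.625 for Fancb, 0.392 for Mre11a, 0.529 for Atr and -0.470 for Mdc1. In all 4 the +GFP groups themselves differed, by 0.77, 0.39, 0.47 and -0.51.

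Between the Rtel1 F/F and Terf1 F/F lines the same test gave 0.666 for Fancb, 0.485 for Mre11a, -0.706 for Atm, 0.467 for Atr, 0.455 for Rad17 and -0.496 for Mdc1. For Atm the change was in Terf1 F/F cells (0.72 against 0.02), and for the other 5 in Rtel1 F/F cells, where Terf1 loss gave values between -0.12 and 0.05.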

How the results depend on the processing

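Over 352 single-gene values, 4853 of 5104 recomputations with the same control libraries kept their side of the threshold, 181 lost and 70 gained a call, and 0 reversed. The counts of members that follow are given without the share of all genes called in each setting. A change in such a count can thus not be read as particular to the members. Fitting only the groups compared called 5 members for Rtel1 loss, 6 for TMPyP4, 1 for the difference to RTEL1 C1252A/C1255A and 7 between both +GFP groups. An adjusted p of at most 0.05 gave 18 for Rtel1 loss, 7 and 11 for the differences to RTEL1 C1252A/C1255A and to Terf1 F/F, 5 for +Cre against TMPyP4 and 19 between the +GFP groups. A log2 fold change of at least 0.5 left 1 for Rtel1 loss, 2 for TMPyP4, 2 for each difference and 4 between the +GFP groups. DESeq2 size factors, and no filter on low counts, each gave 5 for TMPyP4. With RTEL1 C1252A/C1255A +GFP as the control the counts were 0 and 2, and 10 called values changed sign. For Rtel1 loss these were Fancb (-0.124), Fancg (0.179), Mre11a (-0.001), Nbn (-0.203), Mdc1 (0.064) and Rif1 (-0.076), and for TMPyP4 Fancb (-0.175), Mre11a (-0.149), Mdc1 (0.265, called) and Rif1 (-0.037). Where the numbers pair the libraries, the replicate block gave 4 for +Cre against TMPyP4, 0 for Cre with RTEL1 C1252A/C1255A, as without it, and, with RTEL1 C1252A/C1255A +GFP as the control, 1 for Rtel1 loss and 4 for TMPyP4. For the difference to RTEL1 C1252A/C1255A, where they pair only some of the groups, it gave 8. Where the numbers are not shown to pair them, the block gave 16 for Rtel1 loss, 14 for TMPyP4, 1 for Terf1 loss, 9 for the difference to Terf1 F/F and 18 between the +GFP groups. Leaving out 1 library gave 5 to 10 for Rtel1 loss, 1 to 10 for TMPyP4, 2 to 4 and 3 to 8 for the differences, and 8 to 10 between the +GFP groups. DESeq2 called 14, 9, 0 and 1 members in the 4 main comparisons. Apart from the fits of fewer groups or libraries, the cause was not tested.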
